A study of Mus musculus with 4 samples.

Results

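MOV10 eCLIP in mouse N2A cells gave 484 lone peaks, each the only peak assigned to its protein-coding gene, out of 12236 peaks in all. A lone peak was chosen by position and count: its midpoint lay in exactly 1 RefSeq gene span of GRCm38.p6, that gene was protein-coding, and no second peak of the list had its midpoint in that gene alone. The count of peaks rests on the same immunoprecipitate against input contrast, and on the same thresholds, as the strength of the peaks. Strength, width and place are therefore described here without a test. The 484 genes were 28.7% of the 1686 coding genes with a peak and 2.21% of the 21900 annotated coding genes.

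The series comprised 4 libraries from N2A, an established mouse neuroblastoma line, labelled as a neurocarcinoma line and listed with no treatment or genotype. Both groups came from the same line: 2 libraries of RNA crosslinked to MOV10 and immunoprecipitated with an anti-MOV10 antibody, and 2 inputs. The labels do not say whether the replicates were separate cultures. The authors deposited 1 list over both replicates, in which each peak has a single −log10 p and a single log2 fold enrichment against the input, so no value below has an error between replicates. Read counts and transcript levels in the input were not analysed here, so a weakly bound transcript and a scarce transcript cannot be told apart.

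MOV10 is a cytoplasmic RNA helicase that works with Argonaute proteins, the effectors of microRNA silencing, and with the nonsense-mediated decay helicase UPF1. It unwinds structured RNA, and its known sites lie mostly in the 3′ untranslated regions of mRNAs. In eCLIP, ultraviolet light fixes protein to RNA, and a peak is a short stretch where the immunoprecipitate holds more fragments than the size-matched input.

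A stretch of bases could be read for 1 lone peak, that of Pcif1, which encodes the cap methyltransferase that writes N6,2′-O-dimethyladenosine. It is shown because it is the lone peak nearest to a gene end. It ran across the annotated 3′ end at 164891440, with 46 nt past it and the midpoint 8 nt before it. The first 22 nt lie in the RefSeq start window of Gm46775, on the other strand, and are given below for the plus strand at chr2:164891379-164891400 (GRCm38.p6), all in lower case since no motif was searched.
Pcif1 peak, first part: tgtgtgagggtcttggggcggt
Of these 22 bases, 14 were G or C. The enrichment of the peak was 3.46 (log2) and its −log10 p was 3.008, close to the lowest value of the list. Besides Pcif1, only Gltp, a glycolipid transfer protein gene, had a lone peak running past its annotated end, by 12 nt. The other 482 lone peaks ended inside their genes.

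Lone peaks were weak within the list. Their median log2 fold enrichment was 3.31, a 9.91-fold enrichment (interquartile range 3.12 to 3.57; exact binomial 95% interval of the median over peaks 3.27 to 3.34). The median over all 12236 peaks was 3.71, or 13.1-fold. A value of at least 4 was reached by 36 of 484 lone peaks (7.44%), against 33.7% of all peaks. Nothing is read from this difference, since the count of peaks and their strength rest on the same thresholds. The lowest lone value, 3.0009 in Bcl9, a Wnt coactivator gene, equalled the lowest of the whole list, and 149 lone peaks (30.8%) reached 3.5.

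The −log10 p was low as well. Its median was 4.68 (interquartile range 3.58 to 6.41) in lone peaks and 10.2 over all peaks. At least 5 was reached by 211 lone peaks (43.6%), against 84.2% of all peaks, and at least 10 by 39 (8.06%), against 11.4% of the peaks of genes with exactly 2 and 53.3% of those of genes with 2 or more. Both a log2 fold enrichment of at least 4 and a −log10 p of at least 5 were found in 15 lone peaks (3.10%). That share was 7% for genes with exactly 2 peaks and 33.3% for genes with 2 or more.

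**Figure D1:**
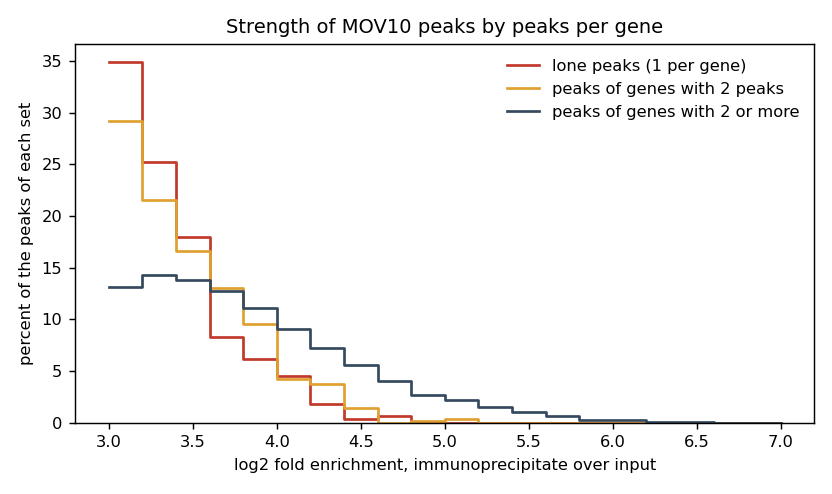
Histogram of log2 fold enrichment in steps of 0.2 (x axis) as the percent of each set of peaks (y axis), for the 484 lone peaks, the 500 peaks of genes with 2 peaks and the 10704 peaks of genes with 2 or more. Lone peaks crowd at the low end with a median of 3.31, those of genes with 2 peaks follow closely at 3.39, and the full set reaches beyond 6.

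Genes just outside the rule, with exactly 2 peaks, had values close to those with 1. The 250 such genes held 500 peaks with a median log2 fold enrichment of 3.39 (interquartile range 3.17 to 3.70) and a median −log10 p of 5.46. The stronger of the 2 peaks had a median of 3.63 and the weaker 3.20, and the lone median of 3.31 lay between them. A single value tends to lie between the lower and the higher of 2, so nothing is read from this place. The 2 peaks were mostly close together, with a median gap of 195 nt, 218 of 250 pairs within 1000 nt and 65 touching or overlapping. Their median difference in log2 fold enrichment within a gene was 0.30.

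Peaks were stronger and narrower in genes with more of them. The median log2 fold enrichment was 3.31 in genes with 1 peak, 3.49 with 4, 3.46 with 6, 3.52 with 7, 3.75 with 11 to 20 and 4.10 in the 106 genes with 21 or more. The strongest peak of each gene ran from 3.31 to 5.29 over the same classes, as a maximum over more peaks must tend to, while the weakest stayed between 3.10 and 3.31. The lone median lay above that of the weakest peak of genes with 21 or more and below that of their strongest. A single value set beside a minimum and a maximum over many peaks tends to lie there, so nothing is read from it.

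**Figure D2:**
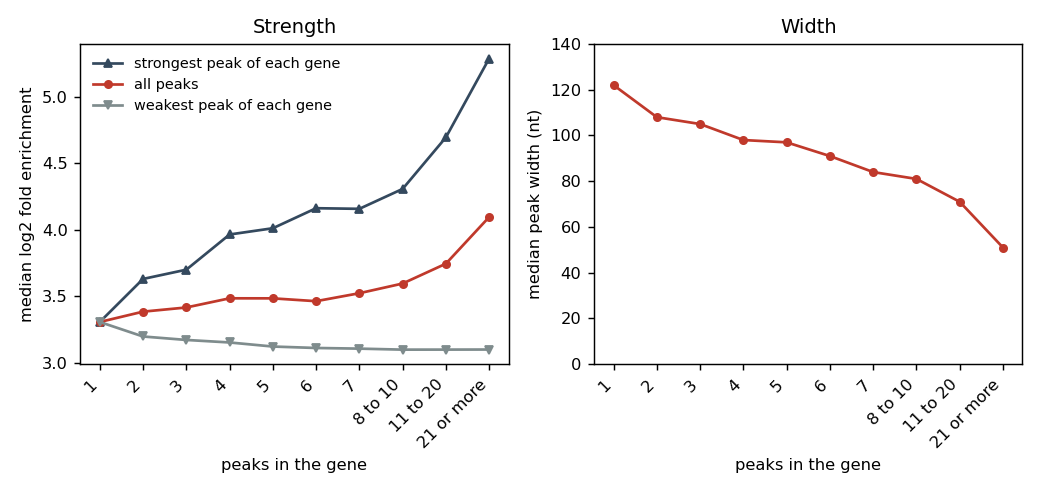
Left, median log2 fold enrichment of all peaks, of the strongest and of the weakest peak of each gene (y axis) by the number of peaks in the gene (x axis). Right, the median width in nt of all peaks by the same classes, falling from 122 nt in genes with 1 peak to 51 nt in genes with 21 or more.

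Lone peaks were wide. Their median width was 122 nt (interquartile range 89 to 166), against 71 nt for the peaks of genes with 2 or more and 107.5 nt for the stronger peak of genes with exactly 2. At least 150 nt was reached by 161 lone peaks (33.3%), and by 8.88% of the peaks of genes with 2 or more. Many peaks of the latter touch another peak, 56.7% of them, and these were the narrow ones, with a median of 60 nt. Those that touched none had a median of 87 nt, still under that of the lone peaks.

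The widest peak of the whole list was a lone one. It lay in Rbpms, which encodes an RNA-binding protein with multiple splicing, on chromosome 8 (33782733 to 33783110), spanned 378 nt and had a log2 fold enrichment of 3.49. Next among lone peaks came Rabgef1, an exchange factor gene for the endosomal GTPase Rab5, with 364 nt and 3.54. Ap1ar, which encodes an adaptor of the AP-1 vesicle coat, had 359 nt, and the co-chaperone gene Bag2 had 350 nt. The narrowest, of 9 nt, lay in the dynein light chain gene Dynll2, and 29 lone peaks (5.99%) were under 50 nt.

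The leading lone peak was that of Mical2, which encodes an actin-oxidising monooxygenase, on chromosome 7 (112353824 to 112353978). Its log2 fold enrichment was 4.79, or 27.7-fold, with a −log10 p of 4.15, at 1293 nt from the 3′ end. Slc41a1, a magnesium transporter gene on chromosome 1 (131847919 to 131848173), followed with 4.77 over 255 nt. Rcor3, a corepressor gene of the LSD1 complex, had 4.66 at 519 nt from its 3′ end (chromosome 1, 192099007 to 192099123). These 3 peaks stood highest by enrichment, yet their −log10 p of 4.15 to 4.34 lay under the lone median of 4.68.

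Further strong lone peaks belonged to genes of varied function. Poc5, a centriole gene, had 4.54, and the interferon-γ receptor subunit gene Ifngr2 had 4.53 with a −log10 p of 8.14. Ccdc97 reached 4.39, the heparan sulfate proteoglycan gene Sdc1 4.35, Lrrc75b 4.34 and Ip6k1, an inositol hexakisphosphate kinase gene, 4.29. The interleukin-10 receptor subunit gene Il10rb had 4.27, Samd10 4.26 and Dusp16, a phosphatase of the JNK pathway, 4.25. Of these 12 strongest, 11 lay within 2 kb of the 3′ end and Il10rb was the exception.

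The lone peaks with the highest −log10 p were other genes. Vdac1, the voltage-dependent anion channel gene of the outer mitochondrial membrane, led with 28.5 at a log2 fold enrichment of only 3.23, on chromosome 11 (52389178 to 52389257). Hdgf, a growth factor gene, had 24.05 at 3.92, and the lysosomal saposin precursor gene Psap had 18.3 at 3.24. Ap1ar had 17.5, the poly(C)-binding protein gene Pcbp2 17.0 and the tropomyosin gene Tpm3 15.5. Pkig, a protein kinase A inhibitor gene, followed with 14.9 and the α-tubulin gene Tuba1a with 14.4. None of these 8 was among the 12 strongest by enrichment. Vdac1, Tpm3 and Tuba1a are known for near-identical copies or pseudogenes, which makes their read assignment uncertain.

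Across the 484 lone peaks the measures of strength were hardly related. The Spearman correlation between log2 fold enrichment and −log10 p was 0.0066, against 0.47 over the 10704 peaks of genes with 2 or more, given as descriptions of peaks that share libraries and thresholds. Many lone peaks had the same −log10 p to 6 decimals: 322 of them (66.5%) shared theirs with another lone peak, and the 484 peaks had 246 distinct values. Sharing was more frequent still, at 75.5%, among the peaks of genes with 2 or more, a set with many more peaks. The 2 most common, 3.008 and 3.40, occurred 16 times each. At 3.40 the enrichment ran from 3.06 in Mospd2 to 4.02 in Vwa5b1, and at 3.75, shared by 9 peaks, from 3.08 in the CTP synthase gene Ctps to 4.29 in Ip6k1. Of the 36 lone peaks with an enrichment of at least 4 (log2), 15 had a −log10 p of at least 5, against 211 of all 484 (43.6%). A low −log10 p was thus not particular to the highly enriched lone peaks.

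**Figure D3:**
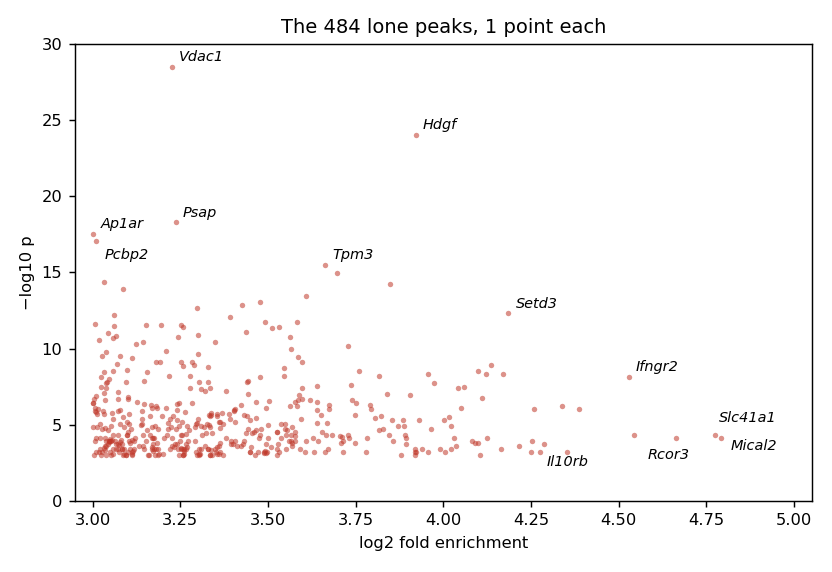
Each of the 484 lone peaks by its log2 fold enrichment (x axis) and −log10 p (y axis). Vdac1 at 28.5 and Hdgf at 24.05 lead on the y axis while Slc41a1, Mical2 and Rcor3 lie at the right with values of 4.15 to 4.34, and rows of points at equal height are peaks that share a −log10 p.

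Lone peaks lay near the 3′ end of their genes. Of the 382 in genes spanning 15 kb or more, 340 (89.0%, exact 95% interval 85.4 to 92.0) were centred no farther than 5 kb from that end. The median distance was 944.5 nt (interquartile range 519.5 to 1826), and 209 lay within 1000 nt. For the strongest peak of each gene with 2 or more the share within 5 kb was 90.4% and the median 1118.5 nt. At 2 kb the shares were 77.7% and 73.7%. In the 102 lone genes under 15 kb, 95 were centred within 2 kb of it. Exon and untranslated region models were not used here, and a place near the gene end is not by itself a place in the 3′ untranslated region.

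**Figure D4:**
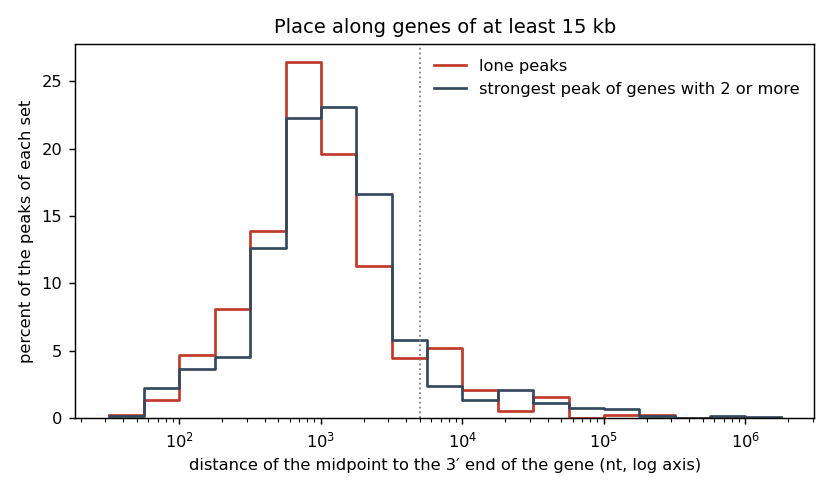
Distance of the peak midpoint to the annotated 3′ end (x axis, log scale, in nt) in genes of at least 15 kb, as the percent of each set (y axis), for lone peaks and for the strongest peak of each gene with 2 or more. The dotted line marks 5 kb; 89.0% of lone peaks and 90.4% of the others lie left of it.

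The strand of lone peaks matched that of their genes wherever both were known. A RefSeq strand was given for 393 of the 484 genes, and 393 of 393 peaks lay on it. For the other 91 genes the direction was taken from the peak itself. Of all lone peaks 48.3% were on the plus strand. The lone genes had a median span of 40.2 kb, close to the 45.7 kb of genes with 2 or more peaks, while the median over all coding genes was 17.1 kb.

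A minority of 42 lone peaks in genes of at least 15 kb lay more than 5 kb from the 3′ end. Of these, 24 were at 5 to 10 kb, 9 at 10 to 20 kb and 9 farther away. They had a median log2 fold enrichment of 3.27 and a median −log10 p of 4.05, against 3.30 and 4.71 for the 340 peaks near the end, and 4 reached a log2 fold enrichment of 4. Those 4 were Il10rb, the GTPase-activating gene Sgsm3 (4.13), the ubiquitin ligase gene Rnf214 (4.08) and the unconventional myosin gene Myo18a (4.09).

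The peak farthest inside was that of Tshz2, a zinc finger homeobox gene, on chromosome 2 (169883984 to 169884083). It lay 188718 nt from the 3′ end of a 440.2 kb gene and had a log2 fold enrichment of 3.64. Kat6b, a histone acetyltransferase gene, followed with a peak 155135 nt from the 3′ end and 18127 nt from the 5′ end, at 3.40. Agtpbp1, which encodes an enzyme that trims glutamates from tubulin, had its peak 50715 nt from the 3′ end at 3.03. Zfp516 and the fibulin gene Fbln1 had theirs 49310 and 45893 nt away, at 3.10 and 3.04. Among the 42 interior peaks, these 5 lay deepest, and none of the 5 reached 4.

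Within 5 kb of the 5′ end lay 1 of the 382 lone peaks, that of Il10rb. It was on chromosome 16 (91406787 to 91406976, plus strand), 724 nt from the start of the gene and 18953 nt from its 3′ end, with an enrichment of 4.27 (log2) and a −log10 p of 3.21. No RefSeq strand was given for Il10rb. Upstream of it lies Ifnar2, an interferon receptor subunit gene on the plus strand with no peak assigned to it, and the Il10rb peak began 1198 nt past its annotated end. Acsl3, a long-chain acyl-CoA synthetase gene, had a peak (3.36) 38918 nt from its 3′ end. That peak began 1203 nt past the end of Utp14b, a plus-strand gene of ribosome assembly with no peak assigned to it. The layout differed: Ifnar2 ends before the Il10rb span, whereas the end of Utp14b lies inside the Acsl3 span. Whether the peaks belong to the Ifnar2 and Utp14b transcripts was not tested. Il10rb and Acsl3 were singled out after their positions had been seen.

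Distances to other peaks are in large part fixed by the rule, which admits no second peak assigned to the gene, and are given for the same strand only. The median gap to the nearest peak on the same strand was 436.9 kb, and 0 of 484 touched another peak. Only 10 had one within 5 kb. The nearest, 22 nt away, was a peak of 3.97 centred past the annotated end of Gna12, the gene of the G protein subunit α12, whose lone peak had 3.56. Up to 5 kb past that end lay 11 peaks on the same strand in no gene span, with values of 3.24 to 4.55. The ubiquitin ligase gene Trim56 (3.56) had 14 such peaks of 3.13 to 4.53, BC005537 (3.57) had 5 and the phosphatase regulator gene Ppp1r7 (3.41) had 1. These 4 genes were thus lone only as far as the annotated end, and the transcript that the 31 peaks belong to was not tested. Pcif1 (3.46) also had a same-strand peak within 5 kb, 1688 nt away in the span of Zfp335, with 4.18. The transcript which that peak belongs to was not tested either.

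In 6 of these 10 genes the neighbouring peak lay where 2 genes overlap and so had not been assigned. They were the ubiquitin protease gene Usp22, the adaptor gene Kctd10, the ubiquitin ligase gene Marchf6, the PI3-kinase catalytic gene Pik3ca, the Slit-Robo GTPase-activating gene Srgap3 and the vinculin gene Vcl. The unassigned neighbour was stronger than the lone peak in 5 of them, by most in Srgap3 (4.30 against 3.58) and Usp22 (3.86 against 3.22), and weaker in Vcl (3.33 against 3.39). When shared peaks were counted for each gene they lie in, 12 of 484 genes were no longer single-peak genes: these 6 with Adgrl1, Elk4, Hbs1l, Pcbp2, Rnf214 and Scrn1. Pcbp2 and Rnf214, named above, are thus lone only by the rule.

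Of the 484 lone genes, 155 were on at least 1 of 30 lists of gene families or pathways, and 329 on none. The lists are fixed names or symbol patterns and are not complete. Every family count, share and ranking below covers the listed genes only. The share of lone genes among members with a peak is read against the 28.7% over all coding genes with a peak. These are counts of names, with no test, and transcript levels were not taken into account.

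In the silencing and decay machinery, lone peaks were found in an Argonaute, a GW182 protein and CCR4-NOT subunit genes. Of 8 microRNA silencing genes with a peak among 33 annotated, 3 were lone (37.5%). Eif4enif1, which encodes the eIF4E transporter 4E-T of P-bodies, had 3.17, the Argonaute gene Ago3 3.05 and the GW182 protein gene Tnrc6c 3.04. The Ago3 and Tnrc6c peaks lay 7698 and 7976 nt from the 3′ end, beyond the 5 kb within which most lone peaks fell. Of 14 genes of deadenylation, decapping and decay, 4 were lone (28.6%): the N6-methyladenosine reader gene Ythdf3 (3.60, −log10 p 9.11), the nonsense-mediated decay kinase gene Smg1 (3.17) and the CCR4-NOT subunit genes Cnot11 (3.11) and Cnot8 (3.08).

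Listed splicing, other RNA-binding and translation genes had lone shares near the background. Among 28 listed genes of splicing and other RNA-binding proteins with a peak, 6 were lone (21.4%). The list was not complete, and lone genes such as Rbpms (3.49), named above, were not on it. The neural stem cell gene Msi1 led with 3.97 in a peak of only 18 nt. The stress granule gene G3bp2 had 3.31, the SR protein gene Srsf3 3.15 and Hnrnpul1 3.12. Matr3, of the nuclear matrix, had 3.04 and Pcbp2 3.009. Of 12 listed translation factor genes 3 were lone (25%), Eif2s2 (3.58), Eif4enif1 and Eif5 (3.008). Eif4enif1, the 4E-T gene named above, was on both lists and is not itself an initiation or elongation factor. Among RNA helicase genes, 3 had a peak and 0 of them a lone one.

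Genes of kinesins, dynein and microtubule-associated proteins and of vesicle traffic had lone shares above the background, which was not tested. So did other lists, among them deubiquitinases (6 of 12, 50%) and heat shock and DnaJ genes (4 of 9, 44.4%). Of 25 genes of kinesins, dynein and microtubule proteins with a peak, 12 were lone (48.0%). The kinesin-2 gene Kif3c led with 4.17 and a −log10 p of 8.33, followed by the axonal kinesin gene Kif1a (3.67), the dynein light intermediate chain gene Dync1li2 (3.58) and the kinesin-1 heavy chain gene Kif5b (3.56). The dynein light chain gene Dynlt3 had 3.50 and Kif2c, a microtubule-depolymerising kinesin gene, 3.47. The 12 lone genes also included Stmn2 (3.33), Tuba1a (3.03) and Map4 (3.01), which encode no motor. Of 30 genes of vesicle coats, SNAREs and sorting, 13 were lone (43.3%). Vps9d1 led with 4.02, then the cargo receptor genes Tmed2 (3.84) and Tmed4 (3.82), the tether gene Vps54 (3.50), the retromer gene Vps26a (3.33) and Trappc10 (3.30). The synaptic SNARE gene Snap25 had 3.18 at 786 nt from its end.

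Solute carriers and small GTPases lay near the background share. Of 35 solute carrier genes with a peak 12 were lone (34.3%), led by Slc41a1 and the mitochondrial carrier gene Slc25a46 (3.86). The zinc transporter gene Slc39a11 and Slc25a39 had 3.60 each, the creatine transporter gene Slc6a8 3.52 and the vitamin C transporter gene Slc23a2 3.50. Of 24 small GTPase genes 7 were lone (29.2%). Rab28 had 3.96, Rap2a 3.61, Arl6ip1, which encodes an Arl6-interacting protein caught by the family pattern, 3.46, Arl1 3.43, Rab11b 3.35 and Rnd2 3.27. The single lone G protein subunit gene was Gna12, of 7 with a peak.

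On the lists used, the lone peaks of kinase genes ran from 3.08 to 4.11 and those of phosphatase genes from 3.05 to 4.25. The kinase list was drawn up for the MAP, CDK, CK and calmodulin families. It did not hold all kinases, and the lone gene Jak1 (4.12) was not on it. Of 48 listed kinase genes with a peak 11 were lone (22.9%). Of these 11 genes, 3 reached 4, against 36 of all 484 lone peaks (7.44%), a difference over few genes that was not tested. The 3 genes were Map4k3, upstream of the JNK pathway (4.11), the CDK-activating kinase gene Cdk7 (4.10) and the casein kinase gene Csnk1g3 (4.02). Mark4, a microtubule-affinity kinase gene, had 3.93, Stk24 3.65 and Cdk17 3.59. Of 38 listed phosphatase genes 12 were lone (31.6%). The lone phosphatase gene Ptp4a1 (3.96) was not on the list. Among the listed genes, Dusp16 was followed by Dusp8 (3.82), Ppp1r12b (3.49), Ppp1r7 (3.41), Ppp1cc (3.39) and the calcineurin catalytic gene Ppp3ca (3.31). The calcineurin paralogue Ppp3cb had 3.30 and was also lone.

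Among ubiquitin genes, 10 of 27 RING and TRIM ligase genes with a peak were lone (37.0%). Rnf214 led with 4.08, followed by Trim41 (3.67), Trim56 (3.56), Trim37 (3.32), Rnf14 (3.29) and Rnf19b (3.18). The p53 ligase gene Mdm2 had 3.07 with a −log10 p of 10.9. Of 20 HECT, cullin, F-box and Kelch genes 7 were lone: Kctd3 (4.004), Kctd20 (3.72), Ube3c (3.60), Herc1 (3.33), Fbxo33 (3.26) and Kctd10 (3.20) led them. Of 12 deubiquitinase genes 6 were lone (50%), namely Josd1 (3.71), Usp45 (3.57), Otub1 (3.31), Usp46 (3.27), Usp22 and Usp10 (3.21).

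Listed chromatin and transcription regulators were lone at about the background share. Of 39 listed chromatin genes with a peak 11 were lone (28.2%). After Rcor3, the methyltransferase gene Setd3 had 4.19 with a −log10 p of 12.3, the Polycomb gene Cbx8 3.55 and the remodeller subunit gene Arid2 3.53. Setd3 was counted because it is on the list, but its product is known as an actin methyltransferase. Kat6b and Arid1b (3.35) completed the leading 6 of the list. Lone genes such as Kansl1 (3.59) and Kansl2 (3.30), of an acetyltransferase complex, were not on it. Of 25 genes named Zfp 7 were lone (28.0%), led by Zfp280b (3.64), Zfp236 (3.59), Zfp553 (3.29), Zfp266 (3.14), Zfp516 and Zfp367 (3.06). Of 17 listed homeobox, Sox, Fox and Klf genes 4 were lone, Pbx2 (3.89), Pbx3 (3.56), Foxp4 (3.38) and Zfhx2 (3.12). The list was not complete: Tshz2 (3.64), the lone homeobox gene named above, was not on it.

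Signalling and neuronal surface genes included ligands and receptors. Of 14 genes of the Wnt, Notch, TGF-β, Hedgehog and Hippo pathways 4 were lone (28.6%): the Wnt transcription factor gene Tcf7l2 (3.58), the ligand gene Tgfb2 (3.57) and the Wnt receptor genes Fzd5 (3.34) and Fzd3 (3.19). Of 16 axon guidance and synaptic adhesion genes 4 were lone (25%), the semaphorin receptor gene Plxnc1 (4.002), the latrophilin gene Adgrl1 (3.07), the netrin receptor gene Unc5a (3.02) and the adhesion gene Ncam1 (3.006, −log10 p 11.6). Of 20 actin and adhesion genes 3 were lone (15%), Tpm3 (3.66), Vcl (3.39) and the α-catenin gene Ctnna1 (3.010).

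The remaining families added 1 to 4 lone genes each. Heat shock and DnaJ genes had 4 lone members of 9, Dnajb12 (3.14), Hspa4 (3.12), Hspa4l (3.10) and Bag2 (3.10), all within 0.04 of each other. Cyclin, CDK inhibitor and E2F names had 2 lone genes of 9, Cdkn2aipnl (3.88) and E2f2 (3.15). Cdkn2aipnl matched by its name and is not itself a CDK inhibitor. The nuclear transport list had 1 of 13, the importin gene Kpna3 (3.36), and the Bcl2 and caspase list 1 of 3, Bcl2l13 (3.27). The lone Bcl2 family gene Bok (3.002) was not on that list. Tmem genes had 4 of 16, Tmem127 (3.26), Tmem97 (3.17), Tmem94 (3.07) and Tmem263 (3.05).

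Ribosomal and respiratory chain genes had lone shares near the background, over few genes with a peak. Of 84 cytosolic ribosomal protein genes 4 had a peak, and the 1 lone gene (25%) was Rpl15 (3.26), whose reads may be shared with pseudogenes. Of 98 oxidative phosphorylation genes 4 had a peak, and the 1 lone gene (25%) was the succinate dehydrogenase gene Sdhc (3.02). Mitochondrial ribosomal protein genes had 0 lone peaks and 1 gene with several. The weakest lone peaks, after Bcl9, were those of the Bcl2 family gene Bok (3.002), the ER tethering gene Vapb (3.002) and Ap1ar (3.002).

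**Figure D5:**
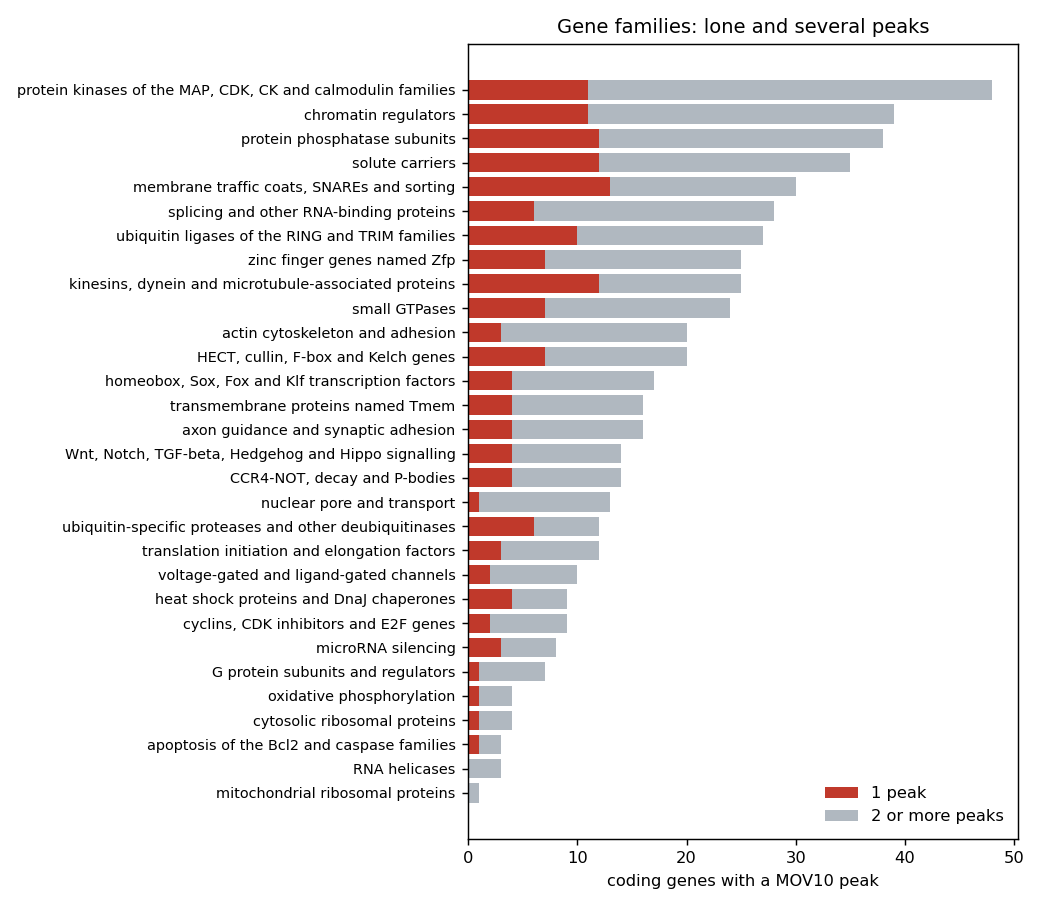
Number of coding genes with a MOV10 peak (x axis) on each of 30 gene family lists (y axis), split into genes with 1 peak and genes with 2 or more. Among listed genes, lone ones are 12 of 25 for kinesins, dynein and microtubule-associated proteins and 13 of 30 for vesicle traffic. They are 6 of 12 for deubiquitinases and 4 of 9 for heat shock and DnaJ genes. They are 6 of 28 for RNA-binding proteins and 1 of 13 for nuclear transport. The lists are not complete.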

How the data were processed

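Per the labels, eCLIP followed the published method on frozen N2A pellets. The submitters' processing notes name mm10 and GRCm38.p6. Aligner, caller and thresholds: not given in the sources used here. In all, the authors deposited 1 list without a header. Its values were read, from their range and the usual column order, as the authors' −log10 p per peak and log2 fold enrichment. A wrong reading would change statements on strength, not on place.

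Starts were converted to count from 1. Midpoints were matched to GRCm38.p6 RefSeq spans, and strands and bases came from the RefSeq start windows, 250 nt before to 50 nt after a start. In a check, 317 of 317 windows overlapping on opposite strands matched base by base. Families were fixed lists or symbol patterns. The members and lists were chosen with earlier results of these data known. Named genes were the 12 highest log2 fold enrichments, 8 highest −log10 p, 5 farthest from the 3′ end, 5 nearest the 5′ end, 4 widest, 4 weakest and up to 6 per family. Names outside this rule were chosen after their values were seen. The genes of 1 family are not reported here. No test was run. Intervals are exact binomial over peaks, not replicates, and the depth is unknown. Python 3.11.15, pandas 2.3.3 and SciPy 1.17.1 were used. Assignment was tested on simulated data. Alternatives changed the merging, thresholds, assignment and windows.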

Additional observations from a re-analysis of the deposited data

How the results depend on the processing

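The number of lone genes, their 3′ place and their low strength were recomputed under 36 combinations of result and alternative, and 25 values stayed within 1.5 times the count or within the interval of the reported value. With touching peaks merged, all 484 genes stayed and 83 joined (567 in all), with a median log2 fold enrichment of 3.35, a median −log10 p of 4.90 and 11.5% reaching 4 (log2). Counting only peaks enriched by 4 or more (log2) left 268 single-peak genes, of which 36 were among the 484, with a median −log10 p of 7.95 and a median width of 104 nt. Counting only peaks with a −log10 p of at least 5 gave 377 genes, of which 211 were among the 484, with a median log2 fold enrichment of 3.41, a median width of 132 nt and 10.6% reaching 4 (log2). Being a single-peak gene thus depended on these thresholds, while the share within 5 kb of the 3′ end ranged from 88.3% to 91.7% over these and the other ways of counting peaks and assigning them to genes. It was 77.7% in a 2 kb window and 95.3% in a 10 kb window. No paired analysis was possible because the list holds 1 value per peak over both replicates, and leaving out a replicate could not be run for the same reason.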

Other observations

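Lone genes included sets of related genes that the families above do not cover. The sets were singled out after their values had been seen and are given as values. Members with a peak that were not lone were not counted, so no lone share is given for these sets. Genes of cytokine reception included Ifngr2 (4.53), Il10rb (4.27), the kinase gene Jak1 (4.12), the inhibitory receptor gene Il17rd (3.73), the interferon receptor gene Ifnar1 (3.53), the gp130 gene Il6st (3.45) and the transcription factor gene Stat5b (3.37). Stat3, of the same family as Stat5b, held a peak (3.57) and was not lone. Il10rb, Ifnar1 and Ifngr2 lie side by side on chromosome 16, with peaks 99.6 kb and 57.3 kb apart. Genes of nucleotide synthesis included the uridine kinase gene Uck2 (3.73), Ctps (3.08), the pyrimidine enzyme gene Cad (3.07) and the phosphoribosyl pyrophosphate synthetase genes Prps2 (3.03) and Prps1 (3.02). Genes of the nuclear lamina and envelope included Lmna (3.62), Syne3 (3.40), Tor1aip2 (3.30), Nemp1 (3.23), the lamin-processing protease gene Zmpste24 (3.20) and the lamin B receptor gene Lbr (3.01).

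Some paralogues, picked after their values had been seen, were lone together. They included the volume-regulated channel genes Lrrc8a (3.79) and Lrrc8b (3.07) and the Arf exchange factor genes Arfgef1 (3.85) and Arfgef2 (3.43). The dynein adaptor genes Bicd2 (3.34) and Bicd1 (3.02) were both lone too. Paralogues with a peak that were not lone were not counted. Lrrc8c, of the same family as Lrrc8a, held a peak (3.90) and was not lone. Kansl1 (3.59) and Kansl2 (3.30), different subunits of the NSL acetyltransferase complex, were also both lone. Within 200 kb of each other on a chromosome lay 40 pairs of neighbouring lone peaks, 21 of them on opposite strands. The closest pair, 3209 nt apart, was in the convergent genes Farp1 (3.68, plus strand) and Stk24 (3.65, minus strand).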
